A study of Homo sapiens with 38 samples.

Results

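SERPINB1 and 6 related serpin genes (SERPINB6, SERPINB9, SERPINB5, SERPINB8, SERPINE2 and SERPINH1) were followed in RKO cells, a human colorectal cancer line, as 7 of the 25504 gene names that occur once in the expression table. The genes were taken by name, not by their values, and 5 of the 7 had a mean of at least 1 FPKM (fragments per kilobase of transcript, scaled to the mapped fragments of the library), the minimum used for tests. SERPINE2 and SERPINB5 lay below it. Messenger RNA was sequenced from cells given DMSO, NCD38, NCD38-β2P4 or NCD38-β2PIPP for 4 or 30 days, with 1 library in each of the 8 conditions. There were therefore no replicates, and the other 30 samples of the series, all ChIP-seq, were not analysed here. The compounds were given at 2 µM with 0.1% DMSO, which the control cells also received, and the medium was renewed every 5 days. The labels give 2 µM for both days, while the methods give 2 mM for day 4. All libraries came from this established line, so every value describes RKO cells only.

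Serpins are proteins that trap proteases by offering a reactive loop as bait, and a few members of the family have taken up other work. The B group stays mainly inside the cell, where it guards the cytoplasm and nucleus against proteases that leak from granules or lysosomes. SERPINB1 inhibits neutrophil elastase, cathepsin G and proteinase 3, SERPINB9 inhibits granzyme B, SERPINB6 inhibits cathepsin G among others, and SERPINB8 inhibits furin. SERPINB5, also called maspin, is an epithelial serpin without protease inhibition. SERPINE2 is a secreted inhibitor of thrombin and plasminogen activators, and SERPINH1, also called HSP47, is a collagen chaperone of the endoplasmic reticulum. NCD38 inhibits LSD1 (KDM1A), which removes methyl groups from lysine 4 of histone H3. In both conjugates NCD38 is joined through a β-alanine linker to a polyamide that lies in the minor groove of DNA. The polyamide of NCD38-β2P4 is made of pyrroles and reads runs of 6 bases that are each A or T. In NCD38-β2PIPP an imidazole takes the place of a pyrrole, and the sequence read is 2 bases that are each A or T, then CG, then 2 more that are each A or T. The study showed SERPINB1 with NCD38-β2P4 as an example gene. Its level on day 30 is therefore given here as a description, without a test.

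SERPINB1 (chr6:2832566-2842193), SERPINB9 (chr6:2887504-2903543) and SERPINB6 (chr6:2948393-2972399) lie side by side on the minus strand of chromosome 6 in GRCh37, each with 7 exons in the annotated main transcript. The start of SERPINB9 lies 61.4 kb and that of SERPINB6 130 kb from the start of SERPINB1. The 250 bases before each main transcript start are shown, since the conjugates were built to read short sequences and the 3 neighbours can be compared base by base. They are written 5′ to 3′ on the strand of the gene, with runs of at least 6 bases that are each A or T in capitals.
SERPINB1, chr6:2842098-2842347, minus strand: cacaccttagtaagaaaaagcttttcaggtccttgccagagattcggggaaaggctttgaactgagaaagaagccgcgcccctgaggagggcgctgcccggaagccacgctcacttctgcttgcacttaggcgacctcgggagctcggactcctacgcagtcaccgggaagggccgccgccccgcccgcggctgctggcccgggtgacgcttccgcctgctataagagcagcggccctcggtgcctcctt
SERPINB9, chr6:2903544-2903793, minus strand: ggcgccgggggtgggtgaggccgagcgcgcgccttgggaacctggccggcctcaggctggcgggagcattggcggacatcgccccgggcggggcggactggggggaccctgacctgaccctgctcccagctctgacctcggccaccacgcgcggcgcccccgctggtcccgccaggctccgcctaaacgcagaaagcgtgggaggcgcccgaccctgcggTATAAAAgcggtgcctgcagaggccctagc
SERPINB6, chr6:2971802-2972051, minus strand: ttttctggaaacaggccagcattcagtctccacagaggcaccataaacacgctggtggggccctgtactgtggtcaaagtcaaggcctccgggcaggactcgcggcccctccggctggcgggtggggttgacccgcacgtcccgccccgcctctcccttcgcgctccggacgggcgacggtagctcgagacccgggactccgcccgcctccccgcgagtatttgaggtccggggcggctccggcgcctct
Other annotated transcripts of SERPINB1 and SERPINB6 start further upstream, so the bounds of these genes reach into or past their windows. The windows of SERPINB1 and SERPINB6 held no such run, and that of SERPINB9 held 1 run of 7 bases close to the start. Among the windows of the same length of 18782 protein-coding genes in the table, 51.3% held such a run. The sequence read by NCD38-β2PIPP was in none of the 3 windows and in 13.6% of all windows. Both patterns read the same on either strand, overlapping matches were allowed, and no match of the second pattern, which contains CG, lies within a match of the first. A match or its absence describes these letters only. For SERPINB1 the study reported a gain of the histone mark H3K27ac at an enhancer with a Zbtb3_2 motif. It placed every region that gained this mark with NCD38-β2P4 outside promoters. That enhancer was not located here, so the windows do not describe it. Within the transcribed region, SERPINB1 had 56.4 positions per kb at which a run of 6 such bases begins, SERPINB9 59.9 and SERPINB6 43.6, against a median of 46.0 over 9660 expressed protein-coding genes. The CG-containing sequence occurred 0.839 times per kb in SERPINB1, 0.810 times in SERPINB9 and 0.299 times in SERPINB6, against a median of 0.607. SERPINB1 and SERPINB9 were thus above the median for both patterns and SERPINB6 below it for both.

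The depth of the libraries, estimated from the FPKM steps of single fragments, was 12400000 to 22300000 fragments. The colorectal markers KRT8, KRT18 and CDX2 were above 1 FPKM in all 8 libraries, whereas CDH1 and KRT19 stayed under it and VIL1 was listed at 0. EPCAM stood at 0.0922 to 0.867 FPKM on day 4 and at 3.94 to 6.53 on day 30. The difference was 2.11 on the log2(FPKM + 1) scale (adjusted p = 0.000622, limma). This method fits a linear model to each gene and steadies its variance with those of all genes. KRT8, KRT18 and CDX2 differed between the days by 0.07, 0.26 and −0.36 (adjusted p = 0.863, 0.253 and 0.0559, limma). Of 4 leukocyte markers 1 reached 1 FPKM, the lysosomal CD68 at 633 to 763 FPKM on day 4 and 201 to 251 on day 30 (−1.67, adjusted p = 0.000833, limma), while PTPRC and MPO were listed at 0 in all 8 libraries. Of 4 fibroblast markers and 2 endothelial markers none reached 1 FPKM, and their summed levels stayed at or below 0.0129 and 0.0140 FPKM on day 30 and 0.0137 and 0.0152 on day 4. In such bulk RNA, fewer cells of a type and less RNA per cell cannot be told apart. The libraries of the 2 days may also have been run on different sequencers, since 2 are named for the series, so day and run cannot be told apart. The difference between days moved with the GC content of the transcripts (Spearman's rho of −0.68 across 10177 genes), and so did the ratio of NCD38 to DMSO on day 4 (rho of 0.59). The values of the serpins that this moved are therefore also given with the GC trend removed, that is, after the median of genes of like GC content was subtracted in each library.

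The 7 genes spanned from absent to abundant. The order of mean level, per length of transcript, was SERPINH1 (117 FPKM), SERPINB6 (61.9), SERPINB1 (19.7), SERPINB8 (13.1), SERPINB9 (1.06), SERPINE2 (0.391) and SERPINB5 (0.0114). SERPINB6 was above SERPINB1, and SERPINB8 above SERPINB9, without overlap of their ranges over the 8 libraries. The ranges of the other neighbours in this order overlapped, although SERPINH1 exceeded SERPINB6 and SERPINB1 exceeded SERPINB8 in 8 of 8 libraries and SERPINB9 exceeded SERPINE2 in 7 of 8. Among expressed genes the mean of SERPINH1 stood at percentile 93.0, that of SERPINB6 at 87.2 and that of SERPINB1 at 68.1, while SERPINB9 stood at 1.0, just inside the minimum. The table held 36 serpins, of which 6 had a mean of at least 1 FPKM and 17 were listed at 0 in all 8 libraries.

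**Figure D1:**
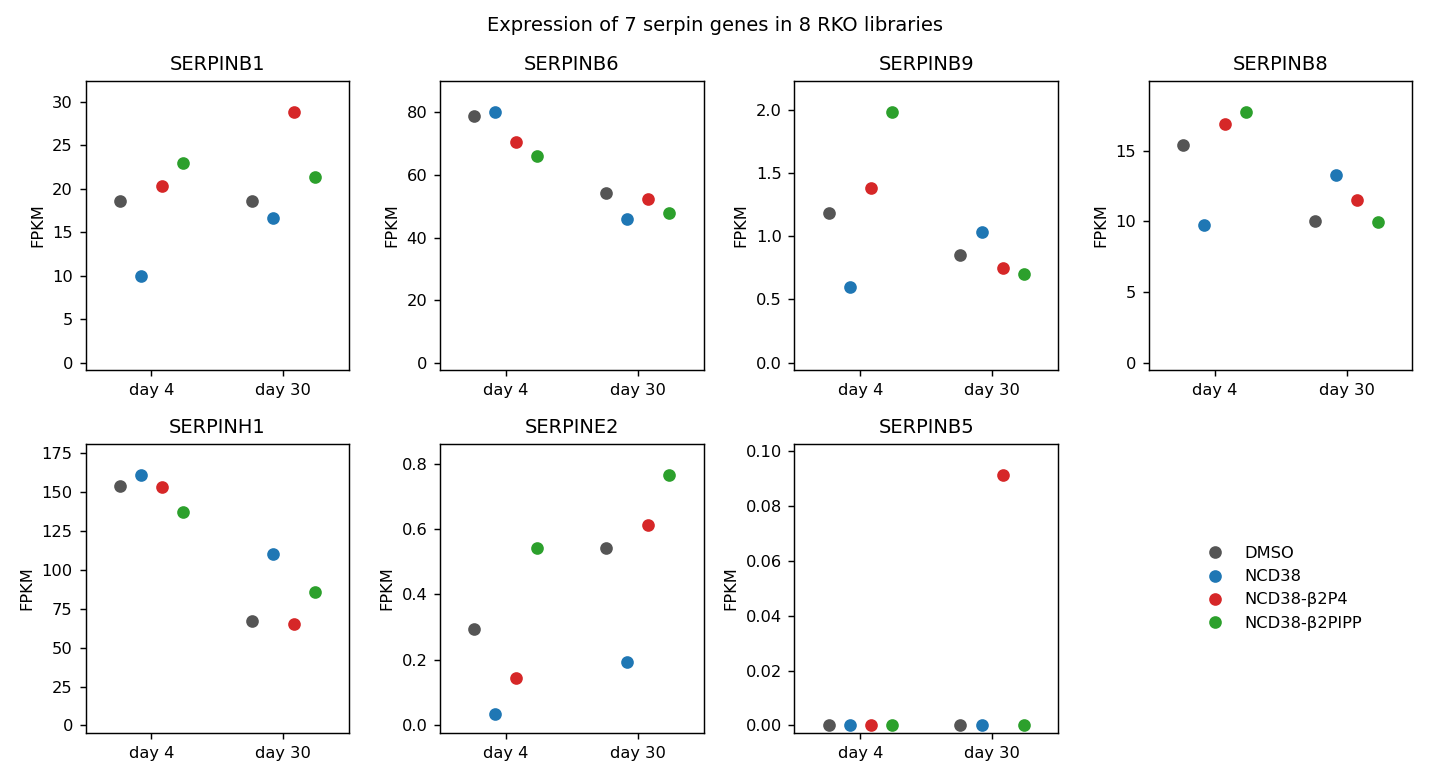
Expression in FPKM (vertical axes, linear, one scale per gene) of the 7 serpin genes in 8 libraries, by day (horizontal axes) and treatment (colours), with 1 point per library and no error bars because each condition had 1 library. SERPINB6 and SERPINH1 sat lower in all 4 libraries of day 30 than in all 4 of day 4, as did 33.1% of genes tested. SERPINB1 was highest with NCD38-β2P4 on day 30.

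SERPINB1, the elastase inhibitor, was measured on day 30 at 18.6 FPKM in the DMSO library and at 16.6, 28.8 and 21.4 FPKM in the libraries of NCD38, NCD38-β2P4 and NCD38-β2PIPP. After 4 days it stood at 18.6, 10.0, 20.3 and 23.0 FPKM in the same order. The highest library was thus NCD38-β2P4 on day 30 and the lowest NCD38 on day 4, with a span of 2.88-fold, and the 2 DMSO libraries were equal to 3 digits. With NCD38-β2P4 on day 30 the FPKM ratio to DMSO was 1.55, with a 95% counting interval of 1.41 to 1.70 from an estimated 883 and 826 fragments. These intervals cover counting error only, not the spread between cultures. On the log2(FPKM + 1) scale, used for all log2 values here unless the plain ratio is named, the difference was 0.61. It was past 1.5-fold, as was that of 2.30% of the 10865 genes tested, of which 155 were higher and 95 lower. The difference was 0.43 with the GC trend removed, which is under 1.5-fold. On day 4 the same conjugate gave a ratio of 1.09 (0.983 to 1.22), an interval that includes 1, and the log2 difference of 0.12 was −0.18 with the GC trend removed. All comparisons with DMSO of one day share that DMSO library.

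The NCD38-β2P4 library of day 30 also stood apart from the others in genes seen mainly there. A search made after the data were seen found 16 protein-coding genes with at least 10 estimated fragments and at least 5 times their highest level elsewhere in this library, against 0 to 2 in each of the other 7. They included the keratin KRT81 (3.27 FPKM), the calgranulin S100A9 (2.96), WFDC2 (1.42) and the caspase CASP1 (1.07), and their summed level was 14.2 FPKM. KRT19 reached 0.467 FPKM there and at most 0.0952 elsewhere. The gain of SERPINB1 over DMSO in this library was 10.2 FPKM. The part of these transcripts in the SERPINB1 value was not tested, and with the library left out NCD38-β2P4 is represented by day 4 alone, where the log2 difference of SERPINB1 was 0.12.

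Under NCD38 alone SERPINB1 was lower than under DMSO on both days. The FPKM ratio was 0.896 (0.807 to 0.992) on day 30 and 0.538 (0.471 to 0.613) on day 4, and the log2 differences were −0.15 and −0.83. The day 4 value was past 1.5-fold, as was that of 24.6% of all genes, of which 2442 were lower and 228 higher, and the median of all genes in that comparison was −0.209. The value was −0.46 once each library was rescaled by its median ratio and −0.24 with the GC trend removed, both under 1.5-fold. Genes of the GC content of SERPINB1 had a median of −0.59 in that comparison, so SERPINB1 was low in that library beside many genes of like composition.

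NCD38-β2PIPP gave SERPINB1 ratios of 1.15 (1.05 to 1.26) on day 30 and 1.24 (1.12 to 1.37) on day 4. Neither was past 1.5-fold, a change that 2.63% of genes showed on day 30 and 29.0% on day 4. The log2 difference of day 4 turned from 0.29 to −0.37 with the GC trend removed, while that of day 30 was 0.19 before and 0.17 after. SERPINB1 thus lay modestly above DMSO with this conjugate on day 30 with and without that step.

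**Figure D2:**
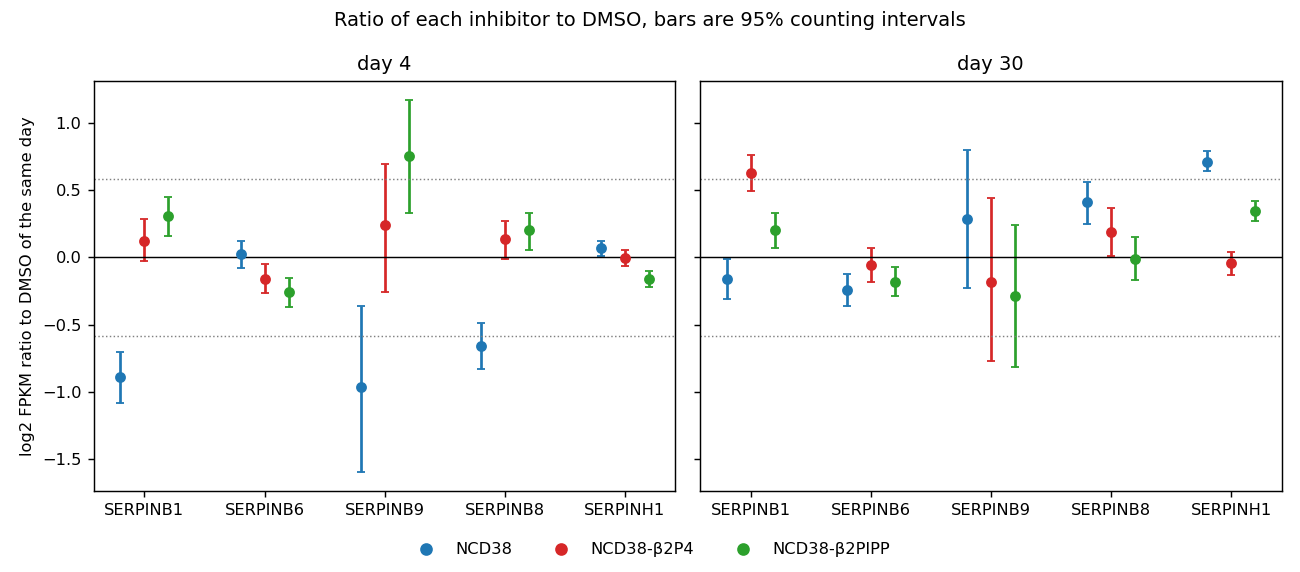
FPKM ratio to DMSO of the same day (vertical axis, log2 scale) for the 5 expressed serpin genes (horizontal axis) and 3 inhibitors (colours) on day 4 and day 30, with bars for 95% counting intervals and dotted lines at 1.5-fold. SERPINB1 with NCD38-β2P4 (1.55) and SERPINH1 with NCD38 (1.64) were the ratios past 1.5-fold on day 30.

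The inhibitors were compared as 3 pairs in a fit over all 8 libraries with terms for day and treatment (limma, adjusted p by Benjamini-Hochberg over 10865 genes). The 2 days served as the repeats of a treatment in this fit but are not replicates of it, so the p-values measure only the scatter that day and treatment leave. For SERPINB1, NCD38-β2P4 exceeded NCD38 by 0.86 on the log2 scale. That estimate includes the library that made SERPINB1 an example, so it is a description, without an interval or a p-value. NCD38-β2PIPP exceeded NCD38 by 0.73 (0.09 to 1.38, adjusted p = 0.526, limma), higher on 2 of 2 days. The conjugates differed from each other by −0.12 (−0.77 to 0.53), NCD38-β2PIPP minus NCD38-β2P4, and the interval holds differences of up to 0.77 between the pyrrole-only polyamide and the polyamide with an imidazole. The differences from NCD38 were 0.37 and 0.15 with the GC trend removed, and on day 4 SERPINB1 then stood at −0.18 with NCD38-β2P4, −0.37 with NCD38-β2PIPP and −0.24 with NCD38, each against DMSO. At day 4 the ratios to NCD38 were 2.03 (1.77 to 2.33) for NCD38-β2P4 and 2.30 (2.02 to 2.63) for NCD38-β2PIPP, and at day 30 they were 1.73 (1.56 to 1.91) and 1.29 (1.17 to 1.41). Both pairs share the NCD38 libraries, in which SERPINB1 was lowest on either day.

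None of the 5 expressed serpin genes passed the adjusted threshold of 0.05 in any of 6 treatment comparisons. The fit called 0.0368% of genes for NCD38 against DMSO, 0.0184% for NCD38-β2P4 against DMSO and 0.0184% for NCD38-β2PIPP against DMSO. Between inhibitors it called 0.00920% for NCD38-β2P4 against NCD38, 0.0184% for NCD38-β2PIPP against NCD38 and 0.0276% for NCD38-β2PIPP against NCD38-β2P4. These are 1 to 4 genes each, against 32 to 637 at an unadjusted p under 0.05. For SERPINB1 the interval of NCD38 minus DMSO ran from −1.14 to 0.16 (adjusted p = 1, limma) and that of NCD38-β2PIPP minus DMSO from −0.40 to 0.89 (adjusted p = 0.982, limma). For SERPINB6 the estimates of the 6 comparisons ranged from −0.22 to 0.00, and the lowest interval bound was −0.68 and the highest 0.47. The SERPINB1 intervals hold its own day 4 differences, −0.83 with NCD38 and 0.29 with NCD38-β2PIPP. The intervals are for the average of the 2 days, whereas these differences are of 1 day each, so the measures are unlike. A difference between SERPINB6 and SERPINB1 in their response was not tested.

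SERPINB9, the granzyme B inhibitor and nearest serpin to SERPINB1, lay close to the 1 FPKM minimum of the tests. On day 30 it stood at 0.851 FPKM under DMSO and at 1.03, 0.751 and 0.698 FPKM under NCD38, NCD38-β2P4 and NCD38-β2PIPP. After 4 days it stood at 1.18, 0.602, 1.38 and 1.98 FPKM, from an estimated 85, 32, 71 and 112 fragments. The day 4 order of treatments was the same as for SERPINB1, with NCD38 lowest and NCD38-β2PIPP highest. With NCD38-β2P4 on day 30, where SERPINB1 was highest, the ratio of SERPINB9 to DMSO was 0.882 (0.585 to 1.36). All 3 day 30 intervals included 1. On day 4 the plain FPKM ratio was 0.513 (0.330 to 0.778) with NCD38 and 1.69 (1.26 to 2.26) with NCD38-β2PIPP, and on the log2(FPKM + 1) scale, which shrinks low levels, these were −0.44 and 0.45. Both turned in sign, to 0.15 and −0.21, with the GC trend removed.

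SERPINB6 was the most abundant serpin of the B group here. On day 30 it stood at 54.2 FPKM under DMSO and at 45.9, 52.3 and 47.9 FPKM under NCD38, NCD38-β2P4 and NCD38-β2PIPP. After 4 days it stood at 78.8, 80.0, 70.6 and 65.9 FPKM. Every library of day 30 was below every library of day 4, as in 33.1% of all genes tested. With NCD38-β2P4 on day 30 the ratio to DMSO was 0.964 (0.883 to 1.05). The lowest of the 6 ratios was 0.836 (0.776 to 0.901), with NCD38-β2PIPP on day 4, and none was past 1.5-fold. The day 4 log2 differences from DMSO depended on the scaling. With NCD38 the value was 0.02, and 0.42 after rescaling by the median ratio or 0.38 with the GC trend removed. With NCD38-β2PIPP it was −0.25, and −0.50 or −0.42 under the same steps. The level of SERPINB6 over that of SERPINB1 was 2.92-fold with DMSO and 1.82-fold with NCD38-β2P4 on day 30, and on day 4 it was 7.99-fold with NCD38.

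The neighbourhood of SERPINB1 was examined further by all genes of the table with an annotated start within 500 kb. There were 13, and 10 had a mean of at least 1 FPKM: WRNIP1, SERPINB9, SERPINB6, NQO2, HTATSF1P2, RIPK1, BPHL, TUBB2A, PSMG4 and TUBB2B. With NCD38-β2P4 on day 30 their log2 differences from DMSO ranged from −0.22 to 0.10 with a median of −0.04, while that of SERPINB1 was 0.61. WRNIP1, which starts at −76.6 kb, on the other side, was at 0.09. Of these 11 genes SERPINB1 alone was past 1.5-fold in that comparison, beside 2.30% of all genes. None of the 11 was with the GC trend removed, with SERPINB1 at 0.43 and the neighbours between −0.26 and 0.10. On day 4 with the same conjugate the neighbours ranged from −0.51 to 0.30 around the 0.12 of SERPINB1. With NCD38 the neighbours spread more, from −0.98 (BPHL) to 0.38 (TUBB2B) on day 30 and from −1.10 (RIPK1) to 0.36 (TUBB2B) on day 4. WRNIP1 was at −0.77 and SERPINB1 at −0.83 on day 4, but at −0.71 and −0.24 with the GC trend removed, when RIPK1 stood at −0.60 and BPHL at 0.55. BPHL is a hydrolase, RIPK1 a kinase of death receptor signalling, and TUBB2A and TUBB2B are tubulins so alike that their reads can be shared. With NCD38-β2PIPP the range was −0.35 to 0.02 on day 30 and −0.30 to 0.74 on day 4, with SERPINB1 at 0.19 and 0.29.

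**Figure D3:**
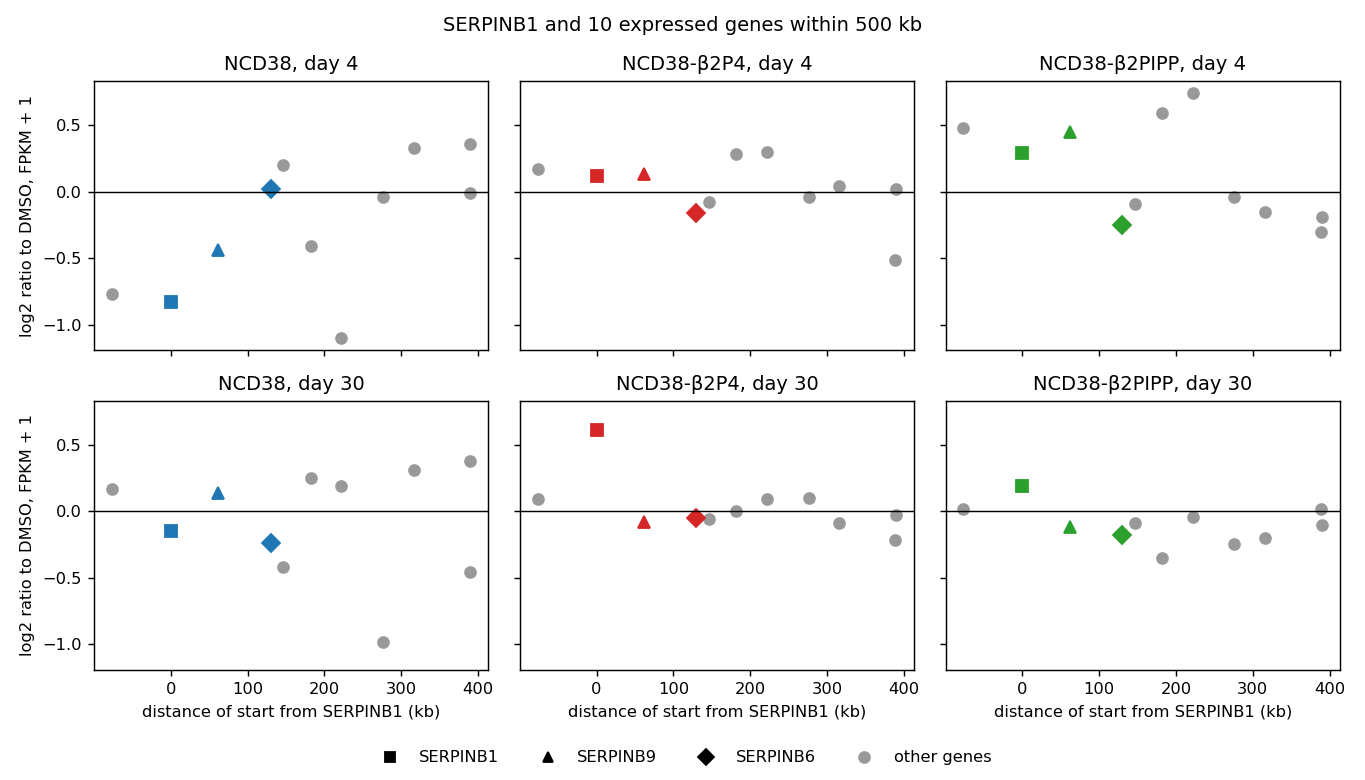
Log2 difference from DMSO of the same day on the log2(FPKM + 1) scale (vertical axes) against distance of the annotated start from that of SERPINB1 in kb (horizontal axes), for SERPINB1 and the 10 expressed genes within 500 kb, by inhibitor and day. With NCD38-β2P4 on day 30 SERPINB1 was at 0.61 and the other 10 between −0.22 and 0.10.

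SERPINB8 (chr18:61637263-61687013, plus strand), the furin inhibitor, lies in the second serpin cluster, on chromosome 18. On day 30 it stood at 10.0 FPKM under DMSO and at 13.3, 11.5 and 9.94 FPKM under NCD38, NCD38-β2P4 and NCD38-β2PIPP. After 4 days it stood at 15.4, 9.76, 16.9 and 17.7 FPKM. NCD38 therefore gave the highest level of day 30 and the lowest of day 4, with ratios to DMSO of 1.33 (1.19 to 1.48) and 0.633 (0.562 to 0.712). The day 4 value was past 1.5-fold, like that of SERPINB1 and of 24.6% of all genes, of which 2442 were lower and 228 higher. On the log2 scale it was −0.06 in place of −0.61 with the GC trend removed, while the day 30 value was 0.28 in place of 0.38. With NCD38-β2P4 the ratio was 1.14 (1.01 to 1.29) on day 30 and 1.10 (0.993 to 1.21) on day 4, where 9.54% of all genes and none of the 5 serpins were past 1.5-fold.

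SERPINB5 (chr18:61144191-61172318, plus strand), or maspin, was listed at 0 in 7 libraries and at 0.0914 FPKM with NCD38-β2P4 on day 30, an estimated 3 fragments. Its start lies 493 kb from that of SERPINB8. Of the 10 serpins in the table between them and including both, SERPINB8 alone had a mean of at least 1 FPKM and 5 were listed at 0 in all 8 libraries. Besides SERPINB5, SERPINB4 (0.0488 FPKM) and SERPINB7 (0.0418 FPKM) were listed above 0 only in that library, which is also the one with the 16 genes named above. The counts are too low to give a fold, and the part of the library's other transcripts in them was not tested. The cluster was thus silent or nearly so apart from SERPINB8, at this depth.

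SERPINE2 (chr2:224839762-224904035, minus strand), the secreted thrombin inhibitor, was low in every library. On day 30 it stood at 0.542 FPKM under DMSO and at 0.194, 0.612 and 0.765 FPKM under NCD38, NCD38-β2P4 and NCD38-β2PIPP. After 4 days it stood at 0.294, 0.0352, 0.146 and 0.543 FPKM, from an estimated 11, 1, 4 and 16 fragments. NCD38 gave the lowest and NCD38-β2PIPP the highest level on either day. The ratio of NCD38 to DMSO was 0.358 (0.126 to 0.847) on day 30 and 0.12 (0.00288 to 0.852) on day 4. The ratio of NCD38-β2PIPP to NCD38 was 3.94 (1.76 to 10.6) on day 30 and 15.4 (2.33 to 630) on day 4. SERPINE2 did not enter the fit. In a fit without the minimum on FPKM, NCD38-β2PIPP exceeded NCD38 by 0.57 (0.31 to 0.83, adjusted p = 0.408, limma over 17976 genes), higher on 2 of 2 days, and NCD38 minus DMSO was −0.35 (−0.61 to −0.08, adjusted p = 1, limma), lower on 2 of 2 days. That fit called SERPINE2 higher on day 30, by 0.29 (0.10 to 0.47, adjusted p = 0.0362, limma), as it did 3778 of the 17976 genes. The ranges of the 2 days overlapped, at 0.194 to 0.765 FPKM on day 30 and 0.0352 to 0.543 on day 4. SERPINE2 was not fitted with the GC trend removed.

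SERPINH1 (chr11:75273101-75283828, plus strand), the collagen chaperone, was the most abundant of the 7. On day 30 it stood at 67.3 FPKM under DMSO and at 110, 65.4 and 85.7 FPKM under NCD38, NCD38-β2P4 and NCD38-β2PIPP. After 4 days it stood at 154, 161, 153 and 137 FPKM. All libraries of day 30 were below all of day 4, as in 33.1% of all genes tested. Within day 30 the NCD38 library was the highest. Its ratio to DMSO there was 1.64 (1.56 to 1.73), past 1.5-fold like that of 6.80% of all genes, and it was 1.05 (1.01 to 1.09) on day 4. With the GC trend removed the day 30 log2 difference was 0.72 in place of 0.70. The day 30 ratio to NCD38 was 0.593 (0.559 to 0.628) for NCD38-β2P4 and 0.777 (0.743 to 0.813) for NCD38-β2PIPP. Over both days, NCD38 minus DMSO was 0.39 (−0.23 to 1.0, adjusted p = 1, limma), higher on 2 of 2 days. The day 4 log2 difference behind it was 0.07, which was 0.47 after rescaling and −0.04 with the GC trend removed.

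Between the days, SERPINB6 and SERPINH1 fell and no other of the 5 tested serpins passed the threshold. SERPINE2, tested in the fit without the minimum alone, was called higher on day 30, beside 3778 of the 17976 genes of that fit. It was not fitted with the GC trend removed. The difference of day 30 minus day 4 was −0.55 for SERPINB6 on the log2 scale (−0.88 to −0.22, adjusted p = 0.0153, limma) and −0.90 for SERPINH1 (−1.34 to −0.47, adjusted p = 0.00717, limma), each lower in 4 of 4 treatments. The 4 treatments are not replicates of a day. The markers EPCAM and CD68 moved between the days as well, whereas KRT8 (0.07), KRT18 (0.26) and CDX2 (−0.36) did not pass the threshold. With the GC trend removed KRT8 (0.86), KRT18 (0.98) and CDX2 (0.43) were called higher, as EPCAM was, and CD68 lower. The part of these markers in the serpin values was not tested. These 2 of 5 serpins stand beside 31.7% of all genes called lower and 30.2% called higher, and the 4 day 30 libraries lay below all 4 of day 4 in 33.1% of genes, so the share among the serpins was close to that of the table. SERPINB1 differed by 0.26 (−0.19 to 0.72, adjusted p = 0.254, limma), SERPINB9 by −0.29 (−0.83 to 0.25, adjusted p = 0.291, limma) and SERPINB8 by −0.37 (−0.94 to 0.21, adjusted p = 0.215, limma). GC content moved with these values: SERPINH1 transcripts held 58.9% GC and genes of like content had a median of −0.74, while SERPINB1 held 43.4% and its like genes had a median of 0.67. With the GC trend removed, the differences were −0.25 for SERPINB6 (adjusted p = 0.252, limma) and −0.19 for SERPINH1 (adjusted p = 0.373, limma), which ended both calls. They were then −0.97 for SERPINB9 (adjusted p = 0.000814, limma) and −1.30 for SERPINB8 (adjusted p = 0.000677, limma), which were called, and −0.42 for SERPINB1 (adjusted p = 0.0582, limma), which turned in sign. With that step 2828 of 10177 genes were called lower on day 30 and 2866 higher. Leaving out the NCD38 library of either day also brought SERPINB9 (−0.50) and SERPINB8 (−0.63) past the threshold. The call of SERPINB6 was lost without the DMSO or the NCD38-β2P4 library of either day (adjusted p = 0.0785 and 0.0636, limma) and after rescaling (0.0550).

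**Figure D4:**
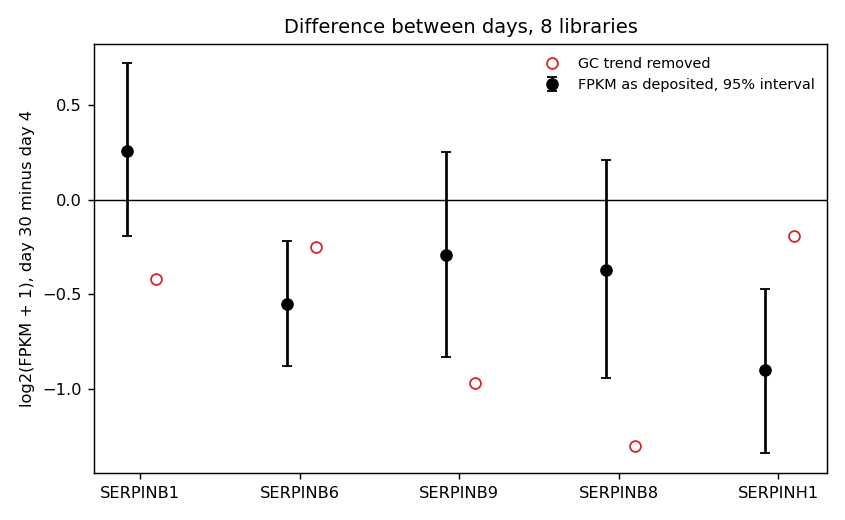
Difference of day 30 minus day 4 on the log2(FPKM + 1) scale (vertical axis) for 5 serpin genes (horizontal axis), from the fit over 8 libraries (filled points with 95% intervals) and with the GC trend removed (open points). SERPINH1 went from −0.90 to −0.19 and SERPINB8 from −0.37 to −1.30 once the GC trend was removed.

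The partners of SERPINH1 were examined in the same comparison. The table held 11 genes of a list of collagen folding and modifying genes, in which the transcription factor HSF1 was counted. Of these, 10 were tested, 7 were lower on day 30, beside 31.7% of all genes, and none was higher, with a median of −0.79 against −0.02 over all genes. Those lower included PLOD1 (−1.22), a lysyl hydroxylase, P4HB (−0.82), the disulfide isomerase subunit of prolyl hydroxylase, CRTAP (−0.76), a subunit of the prolyl 3-hydroxylase complex, and HSF1 (−0.86), the heat shock factor that drives chaperone genes. With the GC trend removed, 3 of the 10 were lower and 2 higher, with a median of −0.14, beside 2828 lower and 2866 higher of 10177 genes. PLOD1 (−0.51) and CRTAP (−0.65) were still called lower then, whereas P4HB (−0.11) and HSF1 (−0.07) were not. The clients of the chaperone were scarce: of 10 collagen genes 2 were tested, COL18A1, which rose by 0.65 (adjusted p = 0.0136, limma), and COL6A1 at 0.30 (adjusted p = 0.144, limma). Both were called higher with the GC trend removed, COL18A1 by 1.33 (adjusted p = 0.000903, limma) and COL6A1 by 1.10 (adjusted p = 0.00155, limma), as were 2866 of 10177 genes. COL1A1 and COL3A1 stayed at or below 0.0137 FPKM. SERPINH1 was thus abundant in cells that expressed little fibrillar collagen.

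The target proteases were mostly at or near 0. Of 16 genes for proteases and receptors that the serpins are known to act on, 6 were tested, and 1 was higher and 2 lower on day 30, beside 30.2% and 31.7% of all genes. The counts were 2 higher and 3 lower with the GC trend removed, beside 2866 higher and 2828 lower of 10177 genes. The elastase ELANE, the cathepsin CTSG and the granzyme GZMB, targets of SERPINB1, SERPINB6 and SERPINB9, were listed at 0 in all 8 libraries, and PRTN3 reached at most 0.0504 FPKM. CASP4, an inflammatory caspase bound by SERPINB1, rose on day 30 by 1.57 (adjusted p = 0.00365, limma), with 197 to 217 FPKM against 38.1 to 108 on day 4. FURIN, the target of SERPINB8, differed by −1.97 (adjusted p = 0.000981, limma), with 11.1 to 21.8 against 57.1 to 61.8 FPKM. Both calls held with the GC trend removed, at 1.34 for CASP4 (adjusted p = 0.000351, limma) and −1.27 for FURIN (adjusted p = 0.004, limma). LRP1, the receptor that clears SERPINE2 complexes, differed by −0.71 (adjusted p = 0.0081, limma), and by 0.07 (adjusted p = 0.669, limma) with the GC trend removed. KDM1A, the target of NCD38, was expressed at 38.0 to 72.1 FPKM and did not pass the threshold between days (−0.40, adjusted p = 0.155, limma).

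The genes whose pattern over the 8 libraries was most like that of SERPINB1 were BZW2, VPS33A, MREG, ATXN10 and FANCF, with Pearson's r of 0.972, 0.968, 0.967, 0.964 and 0.964 on the log2 scale. These correlations describe 8 libraries that share depth, day and GC trend, and 90 of 10864 genes had r over 0.9. BZW2 was at 80.3 FPKM with NCD38-β2P4 on day 30, its highest library, and at 29.9 with NCD38 on day 4, its lowest, as for SERPINB1. Their transcripts held 43.7% to 46.7% GC. The chromosomal neighbours were less alike, with r of 0.345 for SERPINB9 and −0.435 for SERPINB6.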

How the data were processed

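Total RNA of RKO cells was extracted and polyadenylated RNA was sequenced from stranded libraries. According to the methods, TopHat was the authors' aligner and Cufflinks their assembler, while the submitters' processing notes list HISAT2 2.2.1.0, BWA 0.5.9, Cufflinks and bedtools 2.20.1 with hg19 and give no roles. The deposited values are FPKM per gene, normalized by the authors to transcript length and mapped fragments. Read counts are not used here, so depth was estimated from the spacing of low FPKM values of transcripts of 600 to 6000 bases, and counting intervals (95%, exact) rest on that estimate. The annotation behind the table is not given in the sources used here.

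Names that occur more than once (90 of 25594 rows) were left out, and genes with a mean of at least 1 FPKM over the 8 libraries (10865) were tested. Values were log2(FPKM + 1), which understates the change of low genes. limma 3.58.1 in R 4.3.3 fitted day and treatment over all 8 libraries with 3 residual degrees of freedom, two-sided, with Benjamini-Hochberg adjustment over all genes and a threshold of 0.05, and was tested on simulated data. Ratios within a day have no test. Positions, GC content and promoter sequence come from GRCh37 with GENCODE 44 (lifted), to which 93.7% of tested genes were matched. The promoter windows of SERPINB1, SERPINB6 and SERPINB9 were identical to those of RefSeq. Alternatives were a pseudocount of 0.1, other filters, rescaling by median ratio, removal of the GC trend in 20 bins, a single factor in the fit, the other day's DMSO library, a 2-fold threshold and leaving out each library.

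The genes, lists and tests were chosen with earlier results of these data known. Named were the 7 serpins, other serpins of at least 1 FPKM, proteases, collagens and folding genes known to go with them, neighbours within 500 kb, the 5 genes with the highest correlation with SERPINB1, and marker genes. Some genes under this rule are not reported here. Genes seen mainly in 1 library were chosen after their values were seen (at least 10 fragments, 5 times the highest other level plus 0.01 FPKM).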

Additional observations from a re-analysis of the deposited data

Results flagged for a closer look

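SERPINB8 moved in opposite directions with NCD38 on the 2 days, and the counting interval of each ratio excluded 1. The log2 difference from DMSO was 0.38 on day 30 and −0.61 on day 4. SERPINH1 also moved in opposite directions, with NCD38-β2PIPP, at 0.34 on day 30 and −0.16 on day 4, again with intervals that excluded 1. Each value comes from 1 library against 1 library, and the difference between the days was not tested. With the GC trend removed, the values of SERPINB8 were 0.28 and −0.06, and those of SERPINH1 were 0.35 and −0.07.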

How the results depend on the processing

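Of 483 alternatives to the fitted differences of the 5 tested serpins, 423 kept direction and side of the threshold. Another 47 turned in sign without passing it, and the rest moved a day difference across it, as given above. Many of these alternatives could not move the estimate, so 423 overstates its stability. Leaving out a library of a treatment outside a comparison does not change that estimate (−0.49 for SERPINB1, NCD38 against DMSO). Leaving out a treatment's library of either day gives the same day difference (−0.56 for SERPINB6 without DMSO). The other filters and a single factor in the fit keep the estimate and move its adjusted p alone. With the GC trend removed the sign turned to −0.42 (SERPINB1) for day 30 against day 4, 0.06 (SERPINB6) and 0.09 (SERPINB9) and 0.11 (SERPINB8) for NCD38 against DMSO, −0.22 (SERPINB9) and −0.11 (SERPINB8) and 0.01 (SERPINH1) for NCD38-β2P4 against DMSO, −0.10 (SERPINB1) and −0.18 (SERPINB9) and −0.28 (SERPINB8) for NCD38-β2PIPP against DMSO, −0.31 (SERPINB9) and −0.22 (SERPINB8) for NCD38-β2P4 against NCD38, −0.27 (SERPINB9) and −0.39 (SERPINB8) for NCD38-β2PIPP against NCD38. After rescaling it turned to 0.08 (SERPINB6) and 0.05 (SERPINB8) for NCD38 against DMSO, −0.02 (SERPINB9) for NCD38-β2P4 against DMSO, −0.03 (SERPINB8) and −0.04 (SERPINH1) for NCD38-β2PIPP against DMSO, −0.09 (SERPINB8) for NCD38-β2PIPP against NCD38. Where leaving out a library turned a sign, the range over the 8 fits is given. For NCD38 against DMSO it was −0.27 to 0.05 for SERPINB6, −0.57 to 0.27 for SERPINB9, −0.64 to 0.40 for SERPINB8. For NCD38-β2P4 against DMSO it was −0.08 to 0.13 for SERPINB9, −0.23 to 0.19 for SERPINH1. For NCD38-β2PIPP against DMSO it was −0.19 to 0.52 for SERPINB9, −0.18 to 0.36 for SERPINB8, −0.09 to 0.28 for SERPINH1. For NCD38-β2P4 against NCD38 it was −0.24 to 0.60 for SERPINB9, −0.25 to 0.79 for SERPINB8. For NCD38-β2PIPP against NCD38 it was −0.27 to 0.05 for SERPINB6, −0.10 to 0.74 for SERPINB9, −0.31 to 0.72 for SERPINB8. For NCD38-β2PIPP against NCD38-β2P4 it was −0.36 to 0.12 for SERPINB1, −0.21 to 0.49 for SERPINB9, −0.34 to 0.21 for SERPINB8, −0.10 to 0.32 for SERPINH1. The cause was not tested. Against the other day's DMSO library, SERPINH1 with NCD38 on day 30 was at −0.47 in place of 0.70. SERPINB1 with NCD38-β2P4 on day 30 was at 0.43 with the GC trend removed, and within its counting interval of 0.61 under the other alternatives.

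The counts of genes called for treatments were small and unstable. Without a filter, and with at least 1 FPKM in all 8 libraries, limma called 0 genes in each of the 6 comparisons, with 260 to 1521 and 10 to 549 at an unadjusted p under 0.05. With day left out of the fit the count was 1 for NCD38 and 1 for NCD38-β2PIPP against DMSO, 0 for NCD38-β2P4 against DMSO, 0 for NCD38-β2PIPP against NCD38 and 1 between the conjugates. A pseudocount of 0.1 gave 5 for NCD38-β2P4 against DMSO and 2 for it against NCD38, and removal of the GC trend gave 1 for each conjugate against DMSO and 1 for NCD38-β2PIPP against NCD38. Leaving out a library gave 0 to 15 for NCD38, 0 to 15 for NCD38-β2P4 and 0 to 27 for NCD38-β2PIPP against DMSO, 0 to 12 and 0 to 26 for the conjugates against NCD38, and 0 to 28 between them. In these fits the lone library of a treatment was assumed to vary like the others. Past 2-fold on day 30 were 180, 109 and 127 genes for NCD38, NCD38-β2P4 and NCD38-β2PIPP, and on day 4 there were 588, 208 and 1213. Against the other day's DMSO library, 6949, 7071 and 7009 genes were past 1.5-fold on day 30 and 7779, 6485 and 6052 on day 4. The number of genes lower on day 30 among the folding genes was 6 or 7 in all alternatives but removal of the GC trend (3). The labels give no replicate numbers to block on, and the terms for day and treatment already set the treatments side by side within a day. With 1 library per condition, neither depth nor these alternatives measure the spread between cultures.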
